A study of Rattus norvegicus with 12 samples.

Results

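The 3 control small RNA libraries of rat hippocampus were described here on their own, as a picture of which microRNAs (miRNAs) this tissue held at normal oxygen. They were chosen by their labels, as the small RNA libraries of the control group, and are 3 of 12 libraries in the series. Every name with the rat prefix for a known miRNA was included, which gave 669 known names among 1503 listed. The control rats were male and were kept in normoxia for 4 weeks. The other small RNA libraries came from rats under chronic intermittent hypoxia, and a matching set of RNA libraries was made from the same tissue. Neither of those sets was analysed here. Strain and age are not given in the labels, and no genetic change is named. It is not stated that each of the 3 libraries is a different animal, so the spread between them, and p-values resting on it, may be technical.

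A miRNA is cut from a short RNA hairpin, and the hairpin's 2 arms give the 5p and the 3p strand. Usually 1 strand is loaded into an Argonaute protein and the other is degraded. The loaded strand finds messenger RNAs mainly by pairing of its seed, bases 2 to 8, so that miRNAs with the same seed are grouped as a family. Brain is known for a set of miRNAs enriched in neurons, such as miR-124, miR-9 and miR-128, beside broadly made families such as let-7. The hippocampus also holds glia, vessels and blood cells, and adjoins the choroid plexus.

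Mature sequences could be matched to RefSeq (annotation of the GRCr8 assembly) for 601 of the 669 names. They are printed from 5′ to 3′ with the seed in capitals. The first set is the let-7 family, which held the largest share of counts. Its 9 members with the common seed GAGGUAG are listed from the most to the least abundant.
let-7c-5p: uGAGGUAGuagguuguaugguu
let-7a-5p: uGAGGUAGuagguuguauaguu
let-7b-5p: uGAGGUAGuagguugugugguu
let-7f-5p: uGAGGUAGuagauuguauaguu
let-7i-5p: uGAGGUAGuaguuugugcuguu
let-7g-5p: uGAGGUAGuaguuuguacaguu
let-7d-5p: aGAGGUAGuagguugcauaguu
let-7e-5p: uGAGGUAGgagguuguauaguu
miR-98-5p: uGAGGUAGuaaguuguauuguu

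The next set is shown because its names do not tell that they share a seed. miR-384-5p had the seed GUAAACA of the miR-30 family and was the most abundant matched name with it.
miR-384-5p: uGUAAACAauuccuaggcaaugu
miR-30c-5p: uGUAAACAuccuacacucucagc
miR-30a-5p: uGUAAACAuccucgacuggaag
miR-30e-5p: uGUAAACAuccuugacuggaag

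The hairpins miR-9a, miR-132 and miR-212 are shown with both arms because their arm use is described below. The 3p arms of miR-132 and miR-212 share the seed AACAGUC, whereas their 5p arms have different seeds.
miR-9a-5p: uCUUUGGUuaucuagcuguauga
miR-9a-3p: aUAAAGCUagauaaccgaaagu
miR-132-5p: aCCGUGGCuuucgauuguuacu
miR-132-3p: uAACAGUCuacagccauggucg
miR-212-5p: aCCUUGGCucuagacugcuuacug
miR-212-3p: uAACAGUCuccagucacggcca

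The last set holds 3 pairs of names whose sequences are complementary to each other over 22 bases, as an RNA read from the opposite DNA strand would be. They are shown because the counts moved from one name of a pair to the other between libraries.
miR-434-3p: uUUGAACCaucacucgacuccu
miR-3543: cAGGAGUCgagugaugguucaaa
miR-369-5p: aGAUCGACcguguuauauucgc
miR-3578: gCGAAUAUaacacggucgaucu
miR-539-5p: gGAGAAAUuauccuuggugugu
miR-3576: aCACACCAaggauaauuucucc

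The libraries were close in depth, with 4681163, 4778837 and 4848866 counts in control 1, 2 and 3. Known names held 4640937, 4727869 and 4779584 of these counts. Levels are given as counts scaled to a library total of 1000000 (CPM). Mature miRNAs are nearly equal in length, with a median of 22 bases among the matched names with counts, so no length correction was made. Levels of different miRNAs were compared as counted, and differences in how well each sequence is captured into a library were not tested. Because whole tissue was sequenced, fewer cells of a type and less RNA per cell cannot be told apart.

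At least 1 count was found in every library for 574 of the 669 known names, and 27 names had none in any library. A count of 0 in 1 library allowed a level of up to 0.641, 0.628 and 0.619 CPM in control 1, 2 and 3, for counting error alone. The counts were spread over many names. The most abundant, let-7c-5p, held 2.32% of known counts, the 10 most abundant held 20.9% ± 0.987 (SD, n = 3) and the 20 most abundant held 38.2% ± 1.29 (SD, n = 3). It took 29 names to reach 50% of known counts, 105 to reach 90% and 251 to reach 99%.

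The upper end of the ranking was flat. In control 1 the first name, let-7c-5p, had 1.63 times the count of the 20th name, and the ratio was 1.39 in control 2 and 1.42 in control 3. The first name had 12.3, 11.3 and 9.94 times the count of the 100th. In every library 33 names had more than 50000 counts each, and no name had more than 111818. The small RNA counter is not named in the sources used here, and whether it limited the highest counts was not tested. Between 10000 CPM and the top there were 32 names with 53.8% of counts, and the 103 names from 1000 to 10000 CPM held 40.5%. Names from 100 to 1000 CPM held 5.12%.

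**Figure D1:**
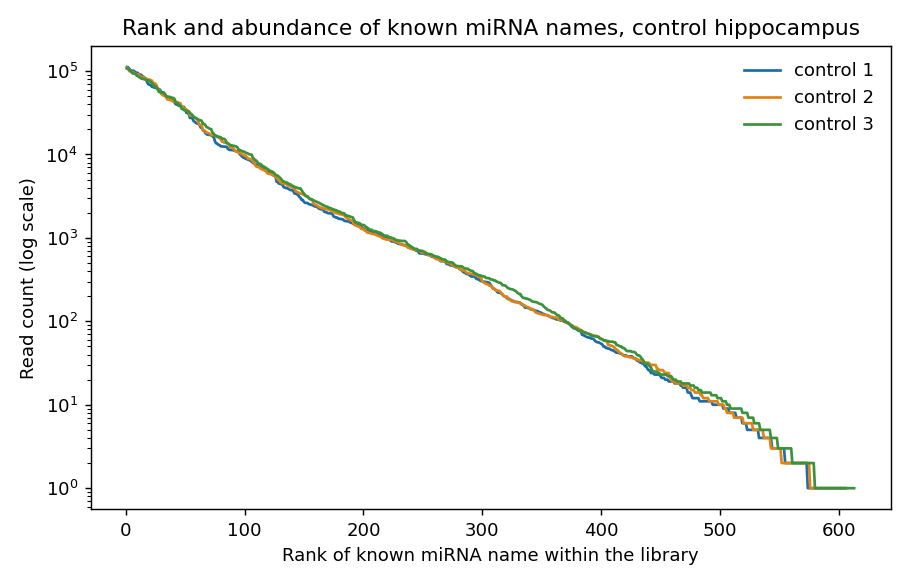
Read count of each known miRNA name on a log axis against its rank within the library, 1 line per control library, for names with at least 1 count. The lines nearly coincide and start flat, with the first name at 1.39 to 1.63 times the count of the 20th.

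The 20 most abundant names comprised 7 members of the let-7 family together with neuronal, vascular and broadly made miRNAs. let-7c-5p was at 23887, 22950 and 22097 CPM in control 1, 2 and 3. miR-26a-5p, a broadly made miRNA, was at 23682, 22320 and 21813 CPM. miR-99a-5p was at 22819, 20868 and 21371 CPM. All 3 were highest in control 1, whereas miR-22-3p, at 20322, 20284 and 20807 CPM, was highest in control 3. let-7a-5p, let-7b-5p and let-7f-5p had means of 20599, 20145 and 19812 CPM, and let-7i-5p, let-7g-5p and let-7d-5p had means of 17802, 17691 and 17678 CPM.

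Brain-enriched names stood among them. miR-181a-5p had 21548, 20726 and 17973 CPM, and miR-9a-5p, which acts in neural progenitors and neurons, had 20615, 19151 and 16513 CPM. miR-138-5p, known for limiting dendritic spine size in hippocampal neurons, had 18472, 17618 and 16401 CPM. All of these were highest in control 1 and lowest in control 3. miR-218a-5p was nearly level, at 19304, 19037 and 19197 CPM. miR-125b-5p went the other way across the libraries, with 15682, 16732 and 17543 CPM.

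miR-126a-3p, the main miRNA of endothelium, was at 17683, 16353 and 15945 CPM, and miR-191a-5p at 18232, 17869 and 17200 CPM. The second arm of the miR-9a hairpin, miR-9a-3p, reached the list too, with 17411, 16656 and 15339 CPM. miR-127-3p, from the imprinted Dlk1-Dio3 cluster, and miR-7a-5p differed most between libraries among the 20. miR-127-3p had 14807, 19039 and 19832 CPM, and miR-7a-5p had 11835, 18128 and 16130 CPM, so that control 1 was low for both. Of the 20 names, 16 were highest in control 1, 1 in control 2 and 3 in control 3. Each library's own 20 most abundant names included 19 of them. Neighbours in this order differed by less than either of their SDs in 14 of 19 cases. The mean of let-7c-5p exceeded that of miR-26a-5p by less than either SD (895 and 966 CPM).

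**Figure D2:**
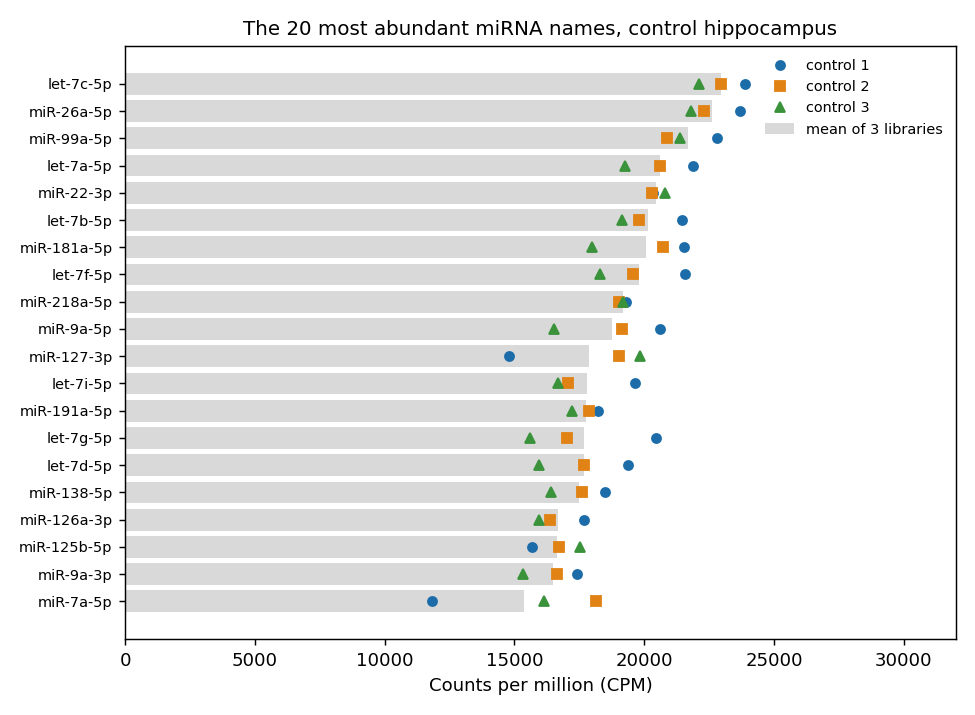
Levels in CPM of the 20 most abundant known miRNA names in the control libraries. Bars show the mean of 3 libraries and the points show each library. The points of neighbouring names overlap, and miR-127-3p and miR-7a-5p have 1 low point each, from control 1.

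Grouped by name, 8 families held the largest shares. The let-7 family, which includes miR-98 and is known for promoting differentiation, held 17.8%, 16.3% and 15.2% of known counts in control 1, 2 and 3, or 16.4% ± 1.27 (SD, n = 3). It has 21 names, all with counts, and 10 of them were above 0.1% of known counts each. Of these 10, let-7d-3p was the only one from the 3p arm, with a mean of 2610 CPM. The 9 members with the common seed had 16.1%, and 8 of these 9 were highest in control 1. The exception was let-7e-5p, at 13843, 14113 and 11582 CPM.

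The miR-9 family held 3.71% ± 0.270 (SD, n = 3), nearly all from the 2 arms of miR-9a, with miR-9b-5p at a mean of 1062 CPM. The miR-99 family held 3.47% ± 0.231, with miR-99a-5p ahead of miR-99b-5p (means 21686 and 12269 CPM). The miR-181 family held 3.30% ± 0.459, and miR-181a-5p, miR-181b-5p and miR-181c-5p had means of 20082, 8329 and 3295 CPM. In the miR-181 family, miR-181b-5p varied most of these, from 10316 CPM in control 1 to 5531 CPM in control 3.

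The miR-30 family held 3.07% ± 0.415, shared among miR-30b-5p, miR-30d-5p, miR-30c-5p, miR-30a-5p and miR-30e-5p with means of 9129, 8285, 7223, 3773 and 1106 CPM. The miR-29 family, known for targeting collagen messages, held 3.05% ± 0.256, with miR-29a-3p at 12455 CPM, miR-29b-3p at 9217 CPM and miR-29c-3p at 7588 CPM. The miR-26 family held 2.61% ± 0.175, of which miR-26a-5p made up 87.5% and miR-26b-5p (3185 CPM) most of the rest. The miR-384 hairpin held 2.56% ± 0.101 from both of its arms, miR-384-5p at 14685 CPM and miR-384-3p at 10616 CPM.

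Shares by seed were summed over RefSeq-matched names alone, so that miR-99a-5p, miR-30b-5p and miR-30d-5p are not in them and seed groups were not ranked. The seed GUAAACA was shared by miR-384-5p, miR-30c-5p, miR-30a-5p and miR-30e-5p, printed above, which together held 2.71% of known counts. The matched names with the seeds of miR-181 (ACAUUCA) and miR-29 (AGCACCA) held 3.28% and 2.96%. The seed ACCCGUA was shared by miR-99b-5p and miR-100-5p, which together held 2.44%. Grouping by name counted miR-100 apart from the miR-99 family. miR-125b-5p and miR-125a-5p share the seed CCCUGAG, whose matched names held 2.38%, and miR-7a-5p and miR-7b (GGAAGAC) held 2.22%.

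Some names differ too little for a short read to place them with certainty. Among the matched names, 29 pairs had at most 1 mismatch when aligned from the first base, with lengths up to 2 bases apart. The 49 names in these pairs held 20.2% of known counts. They include let-7a-5p, let-7b-5p, let-7c-5p, let-7e-5p and let-7f-5p, miR-7a-5p and miR-7b, miR-29a-3p and miR-29c-3p, and miR-23a-3p and miR-23b-3p. Their separate levels are uncertain. Family sums hold both members of most such pairs. Exceptions are miR-204-5p with miR-211-5p and miR-103-3p with miR-107-3p, which fall into different families by name.

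A first base of U was more frequent among abundant names. It was found in 50.4% of the 125 matched names at 1000 CPM or more, in 35.1% of the 259 names from 10 to 1000 CPM and in 25.9% of the 193 names with counts below 10 CPM. Names starting with U held 59.5% of the matched counts. A uracil in that place is known to be favoured by Argonaute.

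Marker miRNAs of brain cell types were compared with those of other tissues. The neuronal list, with 16 of 16 names carrying counts, summed to 129715, 127971 and 124058 CPM in control 1, 2 and 3, or 12.9% of known counts. Its leading names were miR-218a-5p, miR-9a-5p and miR-138-5p, described above. miR-124-3p, the classic neuronal miRNA, was lower, at 8045, 5185 and 10118 CPM. miR-128-3p had 13014, 16482 and 14712 CPM and miR-137-3p had 11958, 12657 and 9797 CPM, so that both exceeded miR-124-3p in means.

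The list of miRNAs induced by neuronal activity summed to 8541, 10644 and 10179 CPM. Its leading name was miR-132-5p, at 4989, 5872 and 5658 CPM, whereas miR-132-3p, the strand usually studied, was at 412, 526 and 409 CPM. miR-212-5p had 799, 1859 and 1740 CPM and miR-212-3p had 1349, 1227 and 1105 CPM. miR-134-5p, known for acting on Limk1 in dendrites, had 470, 659 and 918 CPM. The 5p names of miR-132, miR-212 and miR-134 were lowest in control 1, and miR-212-3p was lowest in control 3.

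Oligodendrocyte names summed to 17263, 10726 and 10717 CPM. The sum was carried by miR-219a-2-3p, at 10352, 6026 and 5410 CPM, and miR-338-5p, at 3741, 2263 and 2662 CPM. miR-219a-5p did not follow them, with 1586, 1494 and 2142 CPM. miR-219 and miR-338 are known for driving oligodendrocyte maturation and myelination.

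Endothelial miR-126a, the 2 arms together, gave 21351, 18604 and 18772 CPM. The mural and smooth muscle list summed to 3662, 3489 and 3158 CPM, from miR-143-3p at 1693, 1470 and 2113 CPM and miR-145-5p at 1963, 2013 and 1041 CPM. The erythroid list summed to 1534, 676 and 1190 CPM, led by miR-451-5p at 1347, 485 and 911 CPM, with miR-486 at a mean of 151 CPM and miR-144-3p at 63.9 CPM. The leading names of vessel and blood lists thus ranged from 914 CPM in mean for miR-451-5p to 16660 CPM for miR-126a-3p.

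The microglia and leukocyte list summed to 8203, 7757 and 11373 CPM, but miR-150-5p made up 97.5% of it. The other 4 names together came to 222, 230 and 240 CPM. Of these, miR-142-3p, a marker of the blood lineage, had 593, 762 and 702 counts, and miR-142-5p had 177, 141 and 328 counts. miR-223-3p, a myeloid marker, had a mean of 18.6 CPM. The high level of miR-150-5p was thus not shared by the rest of its list.

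The choroid plexus and ciliated ependyma list summed to 15943, 10693 and 11930 CPM, of which miR-204-5p made up 86.0%. miR-204-5p had 13483, 9536 and 10135 CPM. The miRNAs of ciliated cells were lower, with miR-34c-5p at 827, 435 and 547 CPM and miR-449a-5p at 380, 213 and 258 CPM. These names were highest in control 1 and lowest in control 2. miR-449c-5p was at 1, 0 and 1 counts.

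Lists of tissues outside the brain were mostly low. The liver list summed to 13.9, 19.3 and 10.7 CPM, with miR-122-5p at a mean of 14.3 CPM, and the other epithelium list, of miR-200 family members, miR-203a-3p and miR-205, to 140, 105 and 78.4 CPM. Its leading names, miR-203a-3p, miR-205 and miR-429, had means of 59.3, 20.4 and 10.8 CPM. The embryonic stem cell list, of which 6 of 10 names are in the table, came to 0.214, 3.14 and 2.47 CPM, with 0 counts of miR-290 and miR-292-5p in every library. The sensory organ list (miR-183, miR-96 and miR-182) came to 55.3, 43.1 and 24.5 CPM, and miR-183-5p had 104 counts in control 1 and 0 in the others. miR-3553, complementary to miR-183-5p over 22 bases, had 66, 116 and 120 counts in control 1, 2 and 3. Of the Hox cluster list, which marks hindbrain and trunk, miR-10b-5p had 0 counts in every library while miR-10a-5p, miR-196a-5p and miR-196b-5p had means of 59.9, 57.7 and 46.1 CPM.

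Both remaining lists of other tissues were high through 1 name each, and 5 of 7 names of the muscle and heart list are in the table. miR-499-5p, which lies in a heart myosin gene, had 2149, 2067 and 2325 CPM and made up 86.4% of the muscle and heart list, while miR-206-3p had a mean of 200 CPM, miR-133a-3p 108 CPM and miR-1-3p 32.9 CPM. The name miR-1b, which differs from miR-1-3p by 1 base and is not on the list, held 84.5% of the miR-1 family. miR-7a-5p made up 98.0% of the pancreas and endocrine list, and miR-375-3p had 324, 229 and 364 CPM. miR-210-3p, the miRNA best known for induction by hypoxia, was at 28.8, 16.5 and 22.5 CPM in these normoxic controls.

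**Figure D3:**
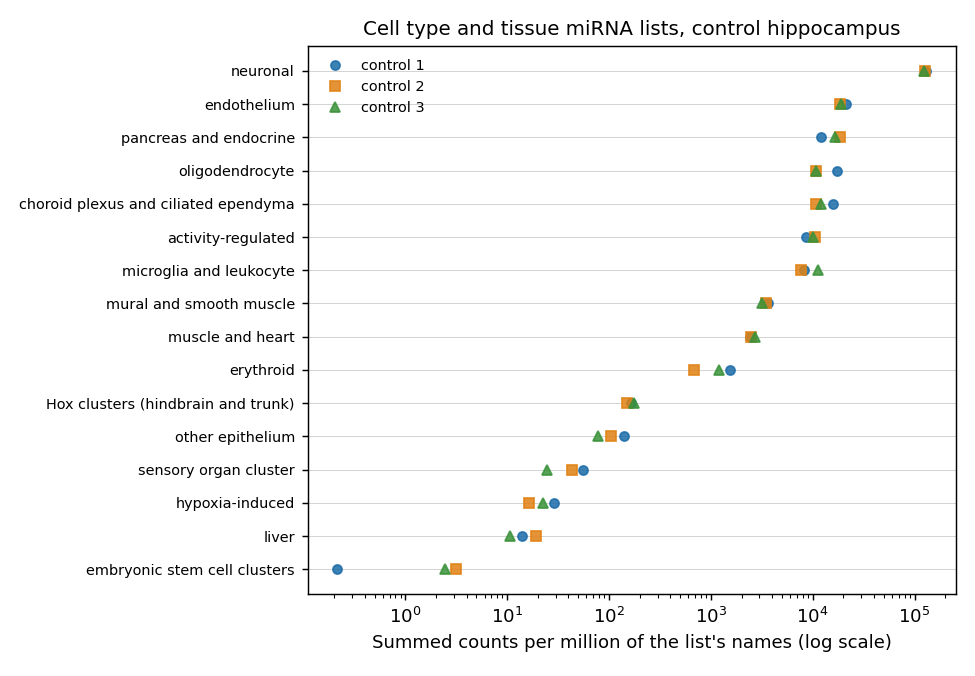
Summed level in CPM, on a log axis, of each marker list in the 3 control libraries, 1 point per library. The sum of the 16 neuronal names lies highest in every library and that of the embryonic stem cell names lowest; lists differ in their number of names.

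miRNAs cut from 1 transcript differed in level. In the 17-92 cluster, known for promoting proliferation, miR-92a-3p had 1454, 1493 and 1173 CPM and miR-19a-3p 3.85, 3.56 and 1.65 CPM, a ratio of means of 455. miR-92a-3p and miR-19b-3p are also made from a second cluster, so their counts join both sources. In the cluster of miR-106b, miR-93 and miR-25, miR-93-5p led with a mean of 937 CPM against 107 CPM for miR-106b-5p. miR-23a-3p had 5267, 4689 and 5785 CPM and its neighbour miR-27a-3p 609, 266 and 2353 CPM. In the cluster of miR-99b, let-7e and miR-125a the members were closest among the clusters of 3 or more, at means of 12269, 13179 and 6886 CPM. miR-143-3p and miR-145-5p had similar means but opposite extremes in control 3.

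The imprinted Dlk1-Dio3 cluster, a large group of hairpins known for activity in neurons, gave 96 names that could be placed through RefSeq, all with counts in every library. Together they held 9.86%, 13.4% and 14.0% of known counts, or 12.4% ± 2.23 (SD, n = 3). After miR-127-3p the leading names were miR-434-3p, miR-376a-3p at 5843, 9544 and 11363 CPM and miR-379-5p at 7931, 8625 and 8420 CPM. Control 1 was lowest for 39 of the 56 cluster names at 100 CPM or more in mean, and for 49 of the 224 other names at that level. The let-7 family stood the other way round, with its highest share in control 1. The cluster names were joined by position on either strand, so they include both names of complementary pairs described below. Of these, miR-434-3p, miR-3578 and miR-3576 were lowest in control 1, at 119, 19 and 10 counts. miR-3543 was highest there, at 47449 counts.

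Arm use was read from hairpins with both a 5p and a 3p name, each arm in the same library. Of the known names, 566 carried an arm and 103 did not. They gave 236 hairpin names with both arms, and 211 of these had at least 10 counts over both arms in each library and were tested. By edgeR's quasi-likelihood test with Benjamini-Hochberg adjustment, 189 of the 211 (89.6%) had unequal arms at an adjusted p under 0.05. The 5p arm was higher in 111 (52.6%) and the 3p arm in 78 (37.0%), and 22 did not pass. Among the 95 hairpins at 1000 CPM or more, 55 were higher in 5p, 35 in 3p and 5 did not pass.

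Most hairpins were strongly one-sided. One arm held at least 90% of the hairpin's counts in every library in 138 of 211, which were 79 for 5p and 59 for 3p, and at least 99% in 61. The leading arm was the same in all libraries in 200 hairpins and changed in 11. The percentage of 5p varied between libraries with a median SD of 1.01 points. Where the test passed and both sequences were matched, the leading arm began with U in 81 of 163 hairpins (49.7%) and the lesser arm in 28 (17.2%). The lesser arm began with C in 54 of 163 and the leading arm in 26.

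The 3p arm led furthest in miR-222, miR-187, miR-487b, miR-143, miR-328a and miR-23a. miR-222, a miRNA of vessels and proliferating cells, had 1 count of 5p against 204995 of 3p over the 3 libraries, a ratio of 204995 with a 95% exact binomial counting interval from 36792 to 8096910. miR-187-5p had 0 counts in every library, so miR-187-3p was at least 18331-fold higher with a floor of 3 counts over the group. In miR-487b, miR-143, miR-328a and miR-23a the 5p arm made up 0.0190%, 0.0198%, 0.0265% and 0.0293% of the hairpin's pooled counts. These intervals and floors cover counting error alone.

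The 5p arm led furthest in let-7b, miR-499, miR-16, miR-100, miR-497 and miR-21. let-7b had 4 counts of 3p among 288052. miR-499 had 3 counts of 3p among 31217, a ratio of 10405 with a 95% exact binomial counting interval from 3560 to 50456. In miR-16, miR-100, miR-497 and miR-21 the 3p arm made up 0.0135%, 0.0153%, 0.0200% and 0.0216% of pooled counts. The edgeR adjusted p, after Benjamini-Hochberg adjustment, was at most 0.000427 in these 12 hairpins of either direction.

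Of the abundant hairpins, miR-9a was among those nearest to equal arms. Its 5p arm held 54.2%, 53.5% and 51.8% of counts in control 1, 2 and 3. The log2 ratio of 5p to 3p was 0.18 (SE 0.13), which did not pass by edgeR (Benjamini-Hochberg adjusted p = 0.232), although 5p was higher in 3 of 3 libraries. The 2 arms have unrelated seeds (above), and the pair ranked 10th and 19th among all names. By DESeq2 the same ratio passed, with a Benjamini-Hochberg adjusted p of 0.00243.

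miR-384 had 53.8%, 61.3% and 59.0% of 5p, a log2 ratio of 0.47 (SE 0.16, edgeR with Benjamini-Hochberg adjustment, adjusted p = 0.0429). This call was lost without control 2 (adjusted p = 0.370) and without control 3 (adjusted p = 0.0858), both by edgeR. miR-872 had 66.1%, 62.3% and 60.8% of 5p and miR-324 had 66.6%, 75.4% and 65.5%. The edgeR adjusted p, Benjamini-Hochberg adjusted, was 0.0318 for miR-872 and 0.0135 for miR-324, and each was lost when control 1 or control 2 was left out.

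miR-212 changed its leading arm between libraries. The 5p arm held 37.2% in control 1, 60.2% in control 2 and 61.2% in control 3. Its 3p counts were 6314, 5863 and 5356, whereas its 5p counts were 3740, 8882 and 8437. The difference between libraries thus lay in the 5p arm, and the arm ratio did not pass (edgeR, Benjamini-Hochberg adjusted p = 0.684). miR-132, its neighbour in the genome, was at 92.4%, 91.8% and 93.3% of 5p in every library, with a log2 ratio of 3.62 (SE 0.23, edgeR adjusted p 0.000121 after Benjamini-Hochberg adjustment).

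Other hairpins of the marker lists ranged from one-sided to mixed. miR-124 had 2.33%, 2.90% and 1.36% of 5p, and miR-137 had 0.172% of 5p in the pooled counts. miR-126a had 17.2%, 12.1% and 15.1% of 5p, so that the lesser arm, miR-126a-5p, still reached a mean of 2916 CPM. miR-338 led with 5p, at 70.2%, 70.6% and 84.1%, while miR-338-3p, its more often studied strand, was at 1585, 944 and 503 CPM. miR-153 had 33.2%, 43.3% and 13.4% of 5p and missed the threshold (edgeR, Benjamini-Hochberg adjusted p = 0.0555); without control 2 it passed, with an adjusted p of 0.00016. miR-34b changed its leading arm, at 54.0%, 52.5% and 33.2% of 5p, and did not pass (edgeR, Benjamini-Hochberg adjusted p = 0.626).

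**Figure D4:**
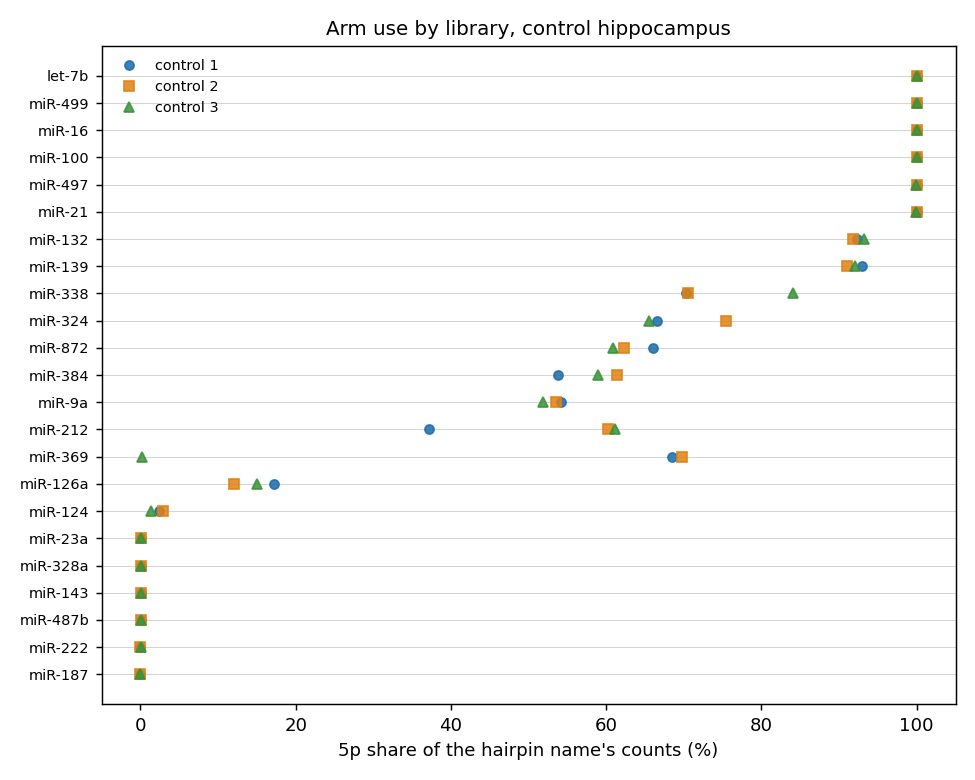
Percentage of a hairpin's counts in the 5p arm, in each control library, for the hairpins at either end, those nearest to equal arms and 5 of the marker lists. Most points lie near 0 or 100%, miR-9a lies near 50% in all libraries, and miR-212 and miR-369 lie on different sides in different libraries.

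Among the 11 hairpins whose leading arm changed, 4 had an arm whose sequence is complementary to another listed name, namely miR-434, miR-369, miR-539 and miR-505. miR-434 had 97.3%, 9.74% and 11.9% of 5p, and miR-369 had 68.5%, 69.8% and 0.134%. miR-539 had 87.6%, 2.66% and 91.6%, and miR-505 had 80.8%, 84.1% and 46.3%. In miR-369 the 3p counts were similar, at 11011, 16142 and 16392, and the 5p counts were 23976, 37223 and 22. The low count was thus confined to the 5p name in control 3 for this hairpin. Over the 3 libraries its arm ratio did not pass (edgeR, Benjamini-Hochberg adjusted p = 0.879), without control 3 it passed towards 5p (log2 ratio 1.16) and without control 2 towards 3p (log2 ratio -4.08).

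In miR-434, miR-369 and miR-539 the complementary name was high where the arm was low. miR-434-3p had 119, 72623 and 65846 counts in control 1, 2 and 3, and miR-3543 had 47449, 268 and 39. miR-369-5p had 23976, 37223 and 22 counts, and miR-3578 had 19, 42 and 32669. miR-539-5p had 3308, 18 and 5575 counts, and miR-3576 had 10, 5017 and 31. In each of these 3 pairs 1 library held almost all its counts under the other name, and it was control 1 for miR-434-3p, control 3 for miR-369-5p and control 2 for miR-539-5p. miR-505-3p did not follow this pattern, with 262, 266 and 813 counts beside 739, 554 and 1334 of miR-3589, so that both names were highest in control 3. The summed counts of the first pairs did not show the gap: 47568, 72891 and 65885 for miR-434-3p with miR-3543, and 23995, 37265 and 32691 for miR-369-5p with miR-3578.

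The complementary names were then listed throughout, a search chosen after these values were seen. A pair was 2 names whose sequences were complementary over at least 18 bases. There were 40 such pairs with 80 names, holding 24.8% of known counts in each library. In 34 pairs the sum reached 100 counts in every library. The leading name changed between libraries in 8 of the 34, and in 5 the share of a name moved by more than 90 points. Beside the 3 above, these were miR-3570 (2480, 1 and 1981 counts) with miR-181a-1-3p (0, 1771 and 1), and miR-382-3p (293, 6 and 739) with miR-3592 (3, 615 and 2). Of these 5, 4 were among the 10 pairs that overlapped by 22 bases and 1 was among the 24 with a shorter overlap.

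In other pairs the proportions moved less, to differing degrees. The share of the first name ranged over 4.27 points in let-7e-5p with miR-3596c and 14.2 in miR-218a-5p with miR-218b. It ranged over 30.1 points in miR-3557-5p with miR-378a-3p and 61.2 in miR-3553 with miR-183-5p. let-7e-5p had 64803, 67442 and 56158 counts and miR-3596c, complementary to it over 21 bases, had 43686, 42407 and 42153. miR-218a-5p had 90367, 90974 and 93085 counts and miR-218b had 12948, 13458 and 34012. In 17 of the 34 pairs the lesser name held at least 10% of the sum. Over the same 34 pairs the median coefficient of variation (CV, SD over mean) was 23.6% for the leading names, 51.9% for the lesser names and 19.5% for the sums. Which strand the counted reads came from was not tested, since the table holds only names and counts.

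**Figure D5:**
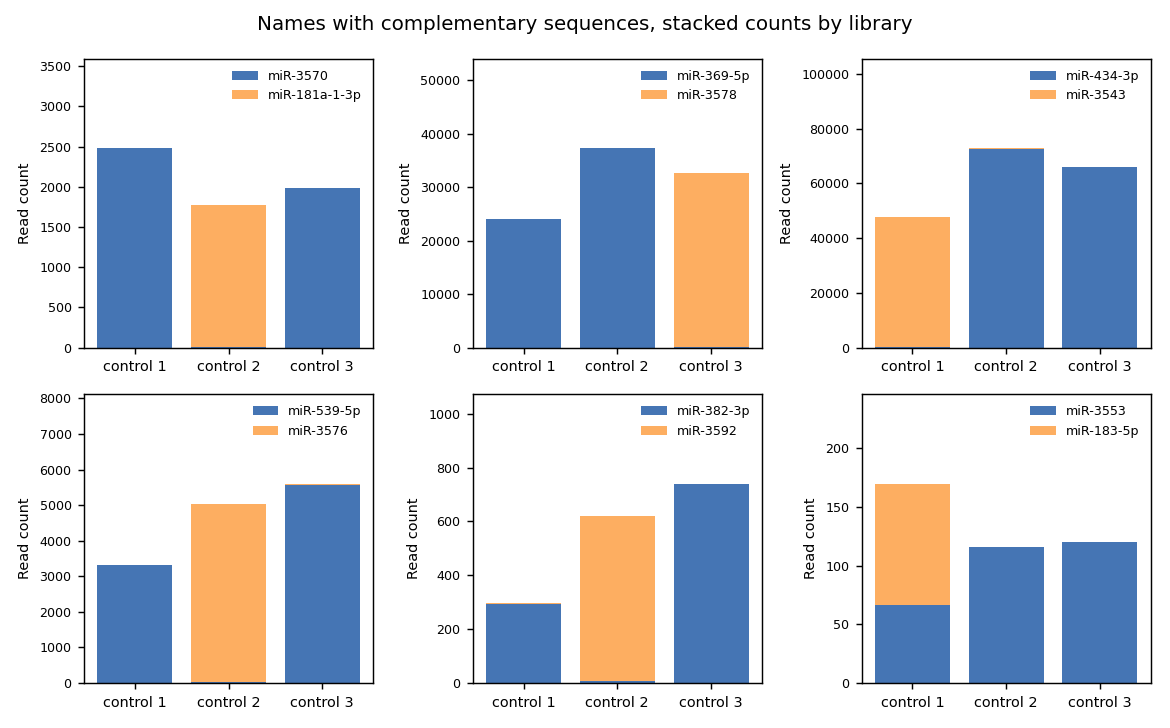
Stacked read counts of both names of a complementary pair in each control library, for the 6 pairs whose shares moved most among the 34 with at least 100 summed counts in every library, each panel with its own axis from 0. In 5 panels 1 library is almost wholly the second name; in the pair of miR-3553 and miR-183-5p, control 1 is shared between them.

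The spread between libraries depended on level. For the 32 names at 10000 CPM or more the median CV was 8.82%, for the 103 names from 1000 to 10000 CPM 24.5%, for names from 100 to 1000 CPM 27.8% and for the 139 names from 10 to 100 CPM 28.6%. Counting error alone would give a median of 0.350% in the first of these groups and 8.10% in the last. Over all names at 10 CPM or more the median CV was 24.4%. The common biological coefficient of variation fitted by edgeR was 0.475. It covered 628 names that passed edgeR's count filter, taken from known and predicted names together.

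As a description over 419 names at 10 CPM or more, which share libraries and depth, the log2 levels of control 1 and 2 had a Pearson r of 0.922, control 1 and 3 of 0.920 and control 2 and 3 of 0.902. More than 2-fold apart were 60, 87 and 70 names in these pairs of libraries. More than 8-fold apart were 9, 5 and 13. A chi-square was taken over all listed names, known and predicted, with at least 10 counts in the 2 libraries together. Per degree of freedom it was 352, 538 and 364 in these pairs. No 2 libraries thus agreed within sampling noise, so none was treated as a library listed again. This does not show that they came from separate animals.

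Among the 280 names at 100 CPM or more, 49 had a CV under 10% and 31 had one over 50%. The smallest were those of miR-218a-5p (0.702%), miR-1193-3p (1.21%), miR-22-3p (1.42%), miR-185-5p (1.61%) and miR-380-5p (1.87%). miR-218a-5p belongs to a complementary pair, and its counts summed with those of miR-218b had a CV of 10.5%. miR-1193-3p had 560, 558 and 573 counts and miR-185-5p had 9782, 9669 and 9981. The steadiest thus included very abundant and less abundant names. For 3 of the 280 the CV was below that of counting error.

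The largest CVs belonged to miR-181a-1-3p (173%), miR-3578 (173%), miR-3543 (172%), miR-3576 (171%) and miR-326-3p (129%). All but miR-326-3p belong to the complementary pairs whose counts moved between names. miR-326-3p had 846, 406 and 6263 counts, with control 3 high. Of the 20 largest CVs, 13 belonged to names in a complementary pair, as did 45 of all 280. The median CV was 31.5% for names in a pair and 22.9% for the others. Control 1 held the highest value for 110 of the 280 names, control 2 for 80 and control 3 for 90.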

How the data were processed

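Per the labels' protocols, hippocampal RNA was extracted with TRIzol and sequenced with BGI machines. For each of 1503 small RNA names the authors deposited a raw read count and a normalized RPM-type value, per the file headers. The submitters' processing notes name Bowtie2 2.2.5, RSEM 1.2.12, HISAT2 2.2.0 and build Rnor_6.0 without roles. Not given in the sources used here were the small RNA counter and any use of molecular identifiers. Deposited counts were used directly. The authors' RPM-type value is proportional to the count within a library (17.3, 17.5 and 17.8 counts per unit in control 1, 2 and 3) and served as an alternative. What the divisor stands for is not given.

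Groups came from sample titles. CPM used the counts of all names, and shares used known names. The 2 arms were compared with edgeR 4.0.16 in R 4.3.3 (quasi-likelihood, library as a factor), Benjamini-Hochberg adjusted over 211 hairpin names at a threshold of 0.05. The SE came from the log2 ratio and the F statistic. In a simulation of 211 hairpins, edgeR called 94.3% of 105 altered by 2 log2 units and 1 of 106 unaltered. Its counts were drawn independently with dispersions fitted to these data and held no shifts between complementary names. It therefore does not give the error rate of the real calls. DESeq2 1.42.0 and limma 3.58.1 gave alternatives. Binomial intervals are Clopper-Pearson at 95%. Dlk1-Dio3 names were joined by RefSeq gene positions with gaps up to 200 kb.

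By rule, the named miRNAs were the 20 most abundant, members above 0.1% in the 8 largest families, 3 leaders of each of 16 lists and members at 0, 6 hairpins at each end and 6 nearest to equal arms at 1000 CPM or more, hairpins of the lists, and the 5 smallest and 5 largest CVs at 100 CPM or more. Any further name was picked with its values in view. Members and lists were chosen with earlier results of these data known.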

Additional observations from a re-analysis of the deposited data

Results flagged for a closer look

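Predicted miRNA names, which the report leaves aside, also held counts. They made up 0.859%, 1.07% and 1.43% of all counts in control 1, 2 and 3, or 1.12% ± 0.288 (SD, n = 3). A count of 0 would have allowed at most 6.41e-05%, 6.28e-05% and 6.19e-05%, for counting error alone. Of 834 predicted names, 432 had counts in every control library and 17 had a mean of 100 CPM or more, the highest being 2748 CPM.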

How the results depend on the processing

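The number of names with counts in every library was 510 with a minimum of 5 counts and 483 with 10. The share of the 10 most abundant names was 21.9% with complementary names summed, an alternative chosen after seeing the data. Hairpins with unequal arm counts numbered 196 by DESeq2, 192 by limma on the log2 ratio and 200 without the minimum count. They numbered 162 without hairpins whose gene overlaps another and 193 with complementary names summed. The direction of 3 named hairpins reversed. The log2 ratio of 5p to 3p ranged from -0.08 (without control 3) over -0.05 (without control 2) to 0.63 (without control 1) for miR-212, and from -0.43 (without control 1) to 0.19 (without control 3) for miR-34b. For miR-369 it ranged from -4.08 without control 2 to 1.16 without control 3, and was 1.11 with complementary names summed, against -0.41 in the fit to all 3 libraries, and control 3 is the library in which miR-3578 held the counts. The call for miR-384 was also lost by limma (adjusted p = 0.124 with a pseudocount of 0.5). No paired analysis was possible because only the control group was used; the arms were compared within each library. For names from 1 to 10 CPM the median CV between libraries was 40.3%, against 23.8% for counting error alone, so depth limits these names more than abundant ones.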
